A study of Saccharomyces cerevisiae with 4 samples.

Results

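The mitochondrial ribosome is described here through its nuclear genes: 65 of the 5498 array features paired with exactly 1 budding yeast gene, each gene with 1 probe set. A gene was taken as a member when its symbol in the array annotation was MRP, MRPL, MRPS or RSM followed by a number. MRP8, whose symbol has the same form, was left out. By symbol alone 34 members belonged to the large subunit (MRPL) and 20 to the small subunit (9 MRPS and 11 RSM). A further 11 carried a plain MRP symbol that does not name the subunit. From what is known of these proteins, 3 of the 11 (MRP7, MRP20 and MRP49) are large subunit proteins and 8 are small subunit proteins, which gives 37 large and 28 small.

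Mitochondria carry their own ribosome, which translates the few proteins that the mitochondrial genome encodes, most of them core subunits of the respiratory chain and of ATP synthase. In yeast nearly all of its proteins are made from nuclear genes in the cytosol and imported, so that the ribosome is built from RNA of one genome and proteins of another. In the common nomenclature of these proteins, a name that begins with u marks a family found in ribosomes of all domains of life, b one shared with bacteria and m one of mitochondria only, and the letters S and L give the small and large subunit. Synthesis of these proteins follows both growth and the demand for respiration, and many of their transcripts are bound by the RNA-binding protein Puf3.

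Total RNA came from 4 yeast cultures of strain BY4741, a haploid of mating type a with the alleles ura3∆0, leu2∆0, his3∆1 and met15∆0. All cultures carried a multicopy p425-GPD plasmid with a LEU2 marker and were in mid-log growth at 30 °C in synthetic medium lacking leucine. The 2 control cultures had this plasmid without insert, and the other 2 had it with the gene of RNase H1, an enzyme that removes RNA from RNA-DNA hybrids, behind the GPD promoter. Arrays 1 and 2 of each group are named by the replicate numbers of the labels. The comparison asks which transcripts differ when the plasmid carries that gene. The labels do not give the species of the insert, and both groups have the same background strain and marker.

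Signals were MAS5 values on a linear scale from Affymetrix Yeast Genome 2.0 arrays, 1 array per culture, with sums per array between 6889760 and 7097920. They are scaled per array, so that a change in the share of a transcript and a change in RNA per cell cannot be told apart. RNH1, the yeast RNase H1 gene, had signals between 292 and 320 in all 4 arrays, so its probe set did not separate the groups. URA3 and MET17, both deleted in the strain, were between 0.183 and 9.02. Probe sets taken as those of S. pombe, which shares the array, had a median of 1.11 and a 95th percentile of 4.68. MET17 lay above that percentile in array 1 labelled RNase H1, at 9.02. LEU2, the plasmid marker, had 12568 and 12870 in the controls, against 10348 and 10619. HIS3, which the his3∆1 allele removes only in part, was between 3288 and 4098. Actin probe sets at both ends of the transcript give a ratio that depends on how intact and how evenly amplified the RNA was. It was 1.34 for each control, against 1.68 and 1.48 for the cultures labelled RNase H1, and another actin pair gave 1.41 and 1.40 against 1.47 and 1.30. The part of RNA quality in the members' values was not tested.

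Transcripts of the mitochondrial ribosome had mostly higher signals in the cultures labelled RNase H1, by small amounts, though none passed the test across all genes. The median log2 change over the 65 members was 0.36, which is 1.28-fold, against −0.02 over all 5470 tested probe sets, and 64 of the 65 log2 changes lay above 0, against 48.6% of all tested probe sets. The exception was MRPL50 at −0.02. The members' quartiles were 0.24 and 0.48, and the whole range ran from −0.02 to 0.79. For all tested probe sets the quartiles were −0.29 and 0.32.

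No single member passed the test across all genes (limma, Benjamini-Hochberg adjusted p under 0.05): 0 were higher and 0 lower, where 1.13% of all tested probe sets were called higher and 0.347% lower. Before adjustment, p was under 0.05 for 22 members with higher and 0 with lower signals, against 11.0% higher and 12.7% lower among all tested probe sets. In 56 of the 65 members both arrays labelled RNase H1 lay above both control arrays, against 28.0% of all tested probe sets. Standard errors of the members' log2 changes were between 0.113 and 0.329 with a median of 0.165. Without array 1 labelled RNase H1, 43 members passed as higher, and without array 2, 20 did. Those fits take the spread from the 2 control arrays alone and called 21.6% and 17% of all tested probe sets higher. Without control array 1 only 1 member was higher at an unadjusted p under 0.05, and without control array 2 there were 2. Over all tested probe sets the share fell to 5.06% and 4.75% in these fits, so the share of members lay below the background there.

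**Figure D1:**
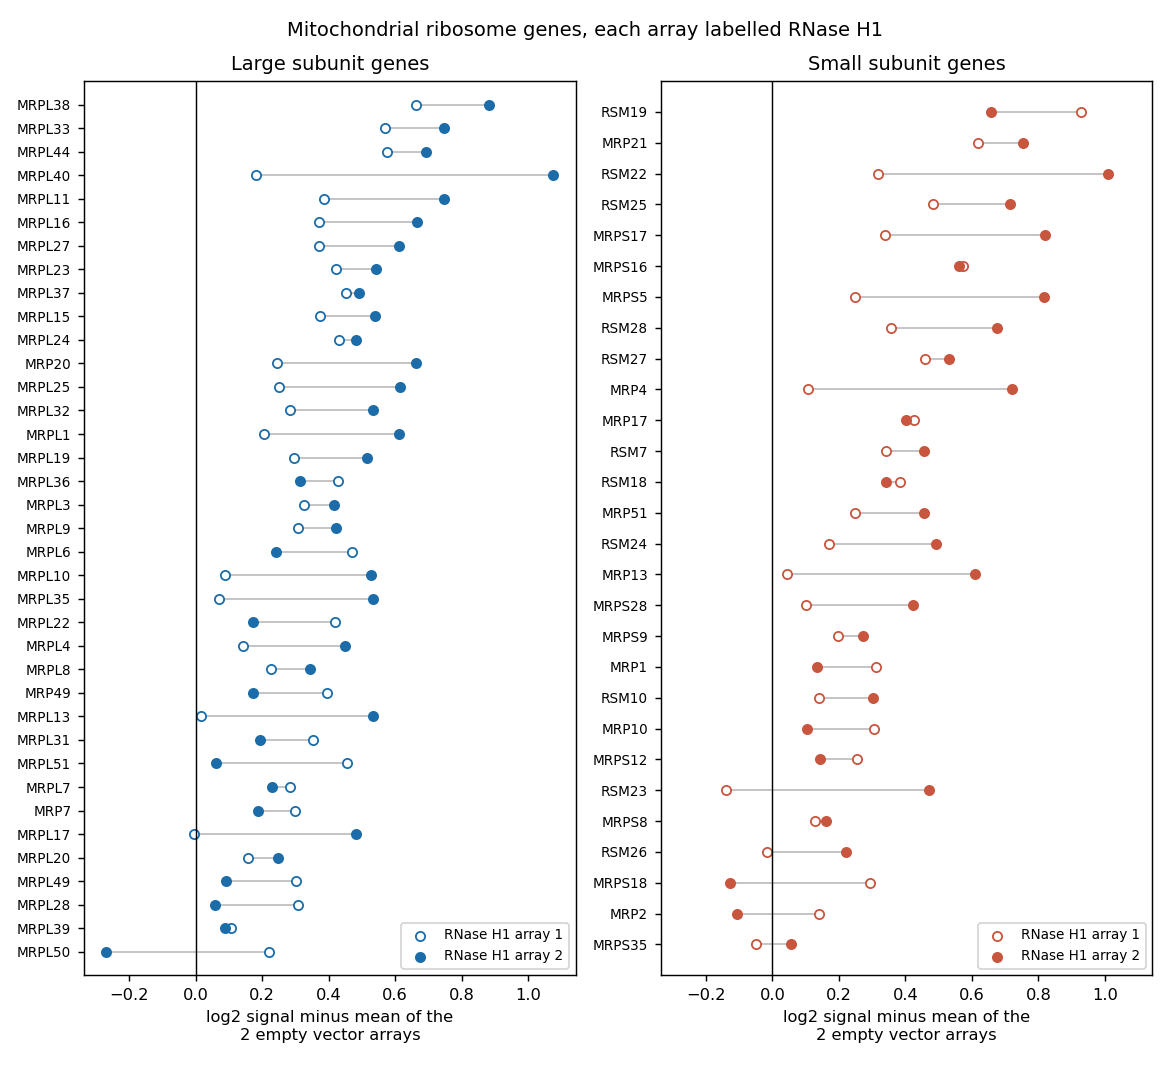
Each row is 1 member gene of the large (left) or small (right) subunit, ordered by its log2 change. The x axis is the log2 signal of each array labelled RNase H1 (open circle array 1, filled circle array 2) minus the mean of the 2 empty vector arrays, and 58 of the 65 members lie right of 0 in both arrays.

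In the large subunit the largest difference was that of MRPL38 (YKL170W), the uL14m protein of the face that meets the small subunit. Its signals were 1030 and 1088 in the controls, against 1675 and 1952 with the label RNase H1. Both of the latter lay above both controls, with a log2 change of 0.77 ± 0.14 (SE, n = 2 against 2, adjusted p = 0.0857), the smallest adjusted p among the members. MRPL33 (YMR286W), the uL30m protein, had 759 and 736 in the controls against 1110 and 1256 (log2 change 0.66 ± 0.15, adjusted p = 0.104). For MRPL44 (YMR225C), the mL53 protein found only in mitochondrial ribosomes, the signals were 832 and 843 against 1247 and 1353 (0.63 ± 0.14, adjusted p = 0.10). In these 3 genes the replicates of each group differed by less than the groups did.

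MRPL40 (YPL173W), the uL24m protein, had a log2 change of like size, 0.63 ± 0.33 (adjusted p = 0.308), but it came mostly from 1 array. Its control signals were 486 and 470, against 542 and 1008. The pair labelled RNase H1 was 0.90 apart on the log2 scale, the widest gap of all members, so the larger value of array 2 sets the mean. Its log2 change was 0.18 without array 2.

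MRPL36 (YBR122C), the bL31m protein, had signals of 1636 and 1826 in the controls, against 2328 and 2146 (log2 change 0.37 ± 0.12, adjusted p = 0.179). Both of the latter were above both controls by more than the controls differed. MRPL8 (YJL063C), the bL17m protein, had the least reproducible controls of any member, 730 and 920, against 959 and 1040. Its log2 change of 0.29 ± 0.18 was smaller than the 0.33 by which the controls differed on the log2 scale.

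Among small subunit genes RSM19 (YNR037C), the uS19m protein of the head of the subunit, had the largest change of all 65 members. It had signals of 600 and 658 in the controls, against 1195 and 991 in the others, a 1.73-fold difference (log2 change 0.79 ± 0.17, adjusted p = 0.0998). MRP21 (YBL090W), the bS21m protein, had 438 and 429 against 665 and 731 (0.69 ± 0.16, adjusted p = 0.109). RSM25 (YIL093C), the mS23 protein, had 362 and 346 against 495 and 580 (0.60 ± 0.18, adjusted p = 0.159). In all 3 genes the groups did not overlap, and the replicates of each group differed less than the groups did.

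RSM22 (YKL155C), which resembles methyltransferases and is linked to small subunit assembly, had 316 and 277 in the controls, against 369 and 596 (log2 change 0.66 ± 0.29, adjusted p = 0.244). Like MRPL40, its mean rested on array 2, since the change was 0.32 without that array. MRPS5 (YBR251W), the uS5m protein, with 290 and 267 against 331 and 491 (0.53 ± 0.25), and MRP4 (YHL004W), the uS2m protein, with 636 and 580 against 654 and 1001 (0.41 ± 0.25), showed the same imbalance. RSM18 (YER050C), the bS18m protein, was even between replicates: 1528 and 1579 against 2028 and 1969 (0.36 ± 0.11, adjusted p = 0.164). MRPS12 (YNR036C), the uS12m protein of the decoding centre, had 1800 and 1872 against 2189 and 2028 (0.20 ± 0.11, adjusted p = 0.340). MRP1 (YDR347W), the mS43 protein, had 992 and 1175 against 1341 and 1185 (0.22 ± 0.16), so that the higher control and the lower of the other arrays were nearly the same.

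**Figure D2:**
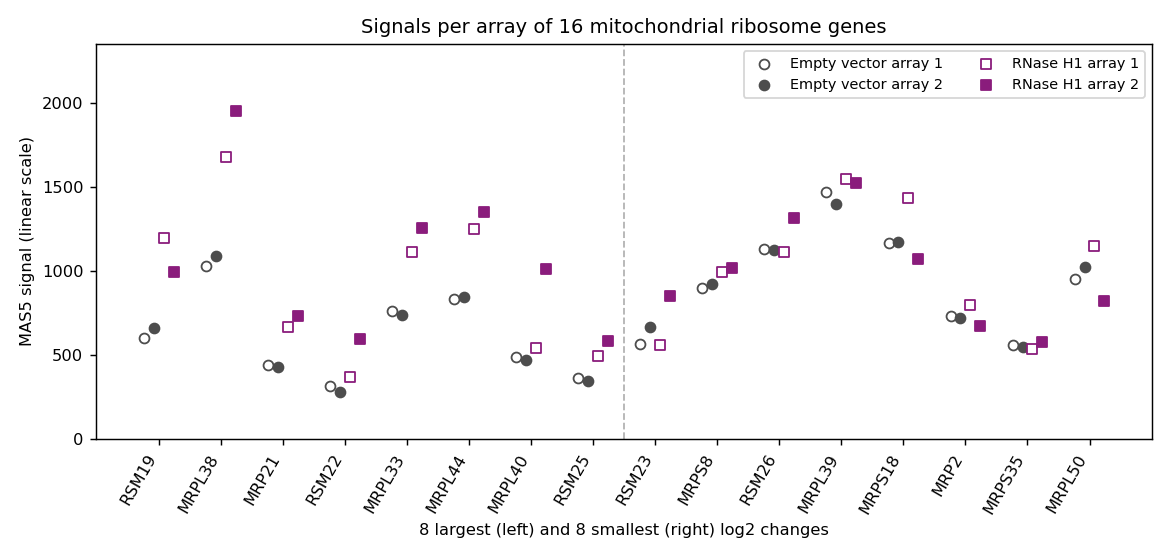
MAS5 signals (y axis, linear scale) of the 8 members with the largest and the 8 with the smallest log2 changes (x axis), with circles for the 2 empty vector arrays and squares for the 2 arrays labelled RNase H1. On the left both squares lie above both circles for every gene, and on the right they overlap except for MRPS8 and MRPL39.

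The groups overlapped in 9 members, 4 of the large and 5 of the small subunit. MRPL50 (YNR022C), the bL9m protein, had 950 and 1021 in the controls, which lay between the 1147 of array 1 and the 817 of array 2 (log2 change −0.02 ± 0.21, adjusted p = 0.955). MRPS18 (YNL306W), the uS11m protein, had 1168 and 1172 against 1435 and 1071 (0.08 ± 0.19), and MRP2 (YPR166C), the uS14m protein, 729 and 718 against 797 and 672 (0.02 ± 0.17). All 3 were above the controls in array 1 and below them in array 2.

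RSM23 (YGL129C), the mS29 protein and relative of the human protein DAP3, went the other way, with 565 and 665 in the controls, against 556 and 850 (0.17 ± 0.26). MRPS35 (YGR165W), the mS45 protein, was at 560 and 547 against 535 and 575 (0.00 ± 0.16), with a 95% interval from −0.41 to 0.42. RSM26 (YJR101W), the mS42 protein of a family related to superoxide dismutases, had 1129 and 1125 against 1114 and 1315 (0.10 ± 0.15). In RSM23 and RSM26 array 1 was below both controls and array 2 above them. The other overlapping members, singled out after their values were seen, were MRPL13, MRPL17 and MRPL51, with log2 changes of 0.27, 0.24 and 0.26. Near the low end but without overlap were MRPS8 (YMR158W), the uS8m protein, at 900 and 924 against 996 and 1019 (0.14 ± 0.14), and MRPL39 (YML009C), the bL33m protein, at 1470 and 1399 against 1544 and 1524 (0.10 ± 0.12).

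The members named by rule include the 8 highest and 8 lowest changes, which narrows the range of the rest and takes out most members with overlap. The remaining 42 members had signals between 429 and 2130 and log2 changes between 0.18 and 0.58. In 39 of them the groups did not overlap, against 28.0% of all tested probe sets. By family, the 16 of them in the large subunit that have bacterial relatives were between 0.20 and 0.57, and the 13 mitochondria-specific ones between 0.18 and 0.49. In the small subunit the 8 with bacterial relatives were between 0.22 and 0.58, and the 5 mitochondria-specific ones between 0.21 and 0.52.

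The medians of the large and small subunit were close to each other. By symbol, the median log2 change was 0.37 for the 34 MRPL genes and 0.35 for the 20 MRPS and RSM genes. Against the mean of the controls, which both values share, the large subunit's median was 0.31 in the first and 0.49 in the second culture labelled RNase H1, and the small subunit's was 0.27 and 0.46. The large minus small difference was thus 0.03 in array 1 and 0.02 in array 2. In the control arrays it was −0.003 and 0.003, equal in size because these are taken from the controls' own mean. Assigning the plain MRP genes by role gave medians of 0.36 for 37 large and 0.34 for 28 small subunit genes. With 2 arrays in each group, the smallest p of an exact permutation test is 0.33, and this difference was not tested. Without control array 1 its sign turned, to −0.02.

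Within the small subunit, the median was 0.23 for the 9 MRPS and 0.40 for the 11 RSM genes. The 40 members with relatives in bacteria had a median log2 change of 0.37, and the 24 found only in mitochondrial ribosomes one of 0.29. RSM22 was in neither class. Their ranges, −0.02 to 0.79 and 0.00 to 0.63, overlapped. The groups of arrays did not overlap in 37 of the 40 (92.5%) and in 18 of the 24 (75%), both above the 28.0% of all tested probe sets.

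The members' values differed between the cultures labelled RNase H1. Their median was 0.30 in array 1 and 0.47 in array 2, while the controls were at −0.02 and 0.02 around their own mean. Over all tested probe sets the corresponding medians were 0.04 and −0.08. Array 2 had the larger value in 44 members and array 1 in 21, against 2193 and 3277 of all tested probe sets. In 7 members the pair labelled RNase H1 was more than 0.5 apart on the log2 scale, and in all 7 array 2 was higher, whereas no member's controls were that far apart. As many as 52 of the 65 members had a wider gap between the arrays labelled RNase H1 than between the controls, with median gaps of 0.22 and 0.08. Over all tested probe sets these gaps were wider, with medians of 0.33 and 0.11.

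The members are scattered over the genome, and only RSM19 and MRPS12 are next to each other in the R64 annotation. That pair had unlike log2 changes, 0.79 and 0.20. Of 127 neighbouring genes that are not members, 113 were tested; their median log2 change was −0.07, and 51 lay above 0. Across the 65 members, the log2 change showed Spearman's rho of −0.06 with gene length and −0.28 with mean signal; the latter was −0.15 across all tested probe sets. These are descriptions over genes measured on the same 4 arrays.

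Some mitochondrial ribosomal proteins have names of another form. All 13 genes of this list were measured, and 12 lay above 0 with a median log2 change of 0.29. The list holds GEP3, a GTPase of small subunit assembly and no ribosomal protein; without it 11 of 12 lay above 0, with a median of 0.30. None passed over all genes in either direction in the limma fit. Before adjustment 1 was higher and 0 lower with p under 0.05, against 11.0% higher and 12.7% lower of all tested probe sets. MHR1, a large subunit component that also acts in recombination of mitochondrial DNA, had 641 and 650 in the controls, against 1033 and 1024 (log2 change 0.67 ± 0.14, adjusted p = 0.097). NAM9, the small subunit protein of the uS4 family, was at 0.43. At the other end RML2 (0.02), a large subunit protein, and MRX14 (−0.00) lay near 0.

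Of the lists of proteins that work with the ribosome, the 4 given here had medians near 0 over all arrays. No test of their difference from the members was made. In arrays 1 and 2 labelled RNase H1 their medians were 0.00 and 0.05 for translation factors. The same medians were 0.12 and −0.13 for aminoacyl-tRNA synthesis, −0.05 and 0.25 for assembly, and 0.24 and −0.01 for activators. Medians of 0.30 for mitochondrial transcription and RNA turnover and 0.13 for membrane insertion are given further below. Among 9 measured translation factors of mitochondria the median was 0.08, with 5 above 0. The gene of elongation factor Tu, TUF1, singled out after its values were seen, had 2419 and 2583 in the controls, against 1974 and 2045 (log2 change −0.32 ± 0.11, adjusted p = 0.180). MEF2, which acts in ribosome recycling, had 601 and 561 against 238 and 117 (−1.80 ± 0.38, adjusted p = 0.095). IFM1, the initiation factor, was at 0.67, RRF1, the recycling factor, at 0.30 and AIM23, an initiation factor, at −0.33. Of 16 genes of mitochondrial aminoacyl-tRNA synthesis 8 lay above 0, with a median of 0.01 and extremes of 0.44 for MSR1 and −0.59 for DIA4. The 10 measured genes of ribosome assembly and rRNA modification had a median of −0.02, with 4 above 0. In this list MRM1, an rRNA methyltransferase, was at 0.64 and MAM33, a matrix protein, at 0.61, whereas the GTPase gene MTG1 was at −0.38 and the protease subunit gene YTA12, whose complex matures MRPL32, at −0.32. Of 15 translational activators 9 lay above 0, with a median of 0.07 and PET309 (0.48) and PET122 (−0.97) at the ends. In these 4 lists 0 genes passed over all genes in either direction. Before adjustment 3 were higher and 2 lower with p under 0.05, against 11.0% higher and 12.7% lower of all tested probe sets.

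**Figure D3:**
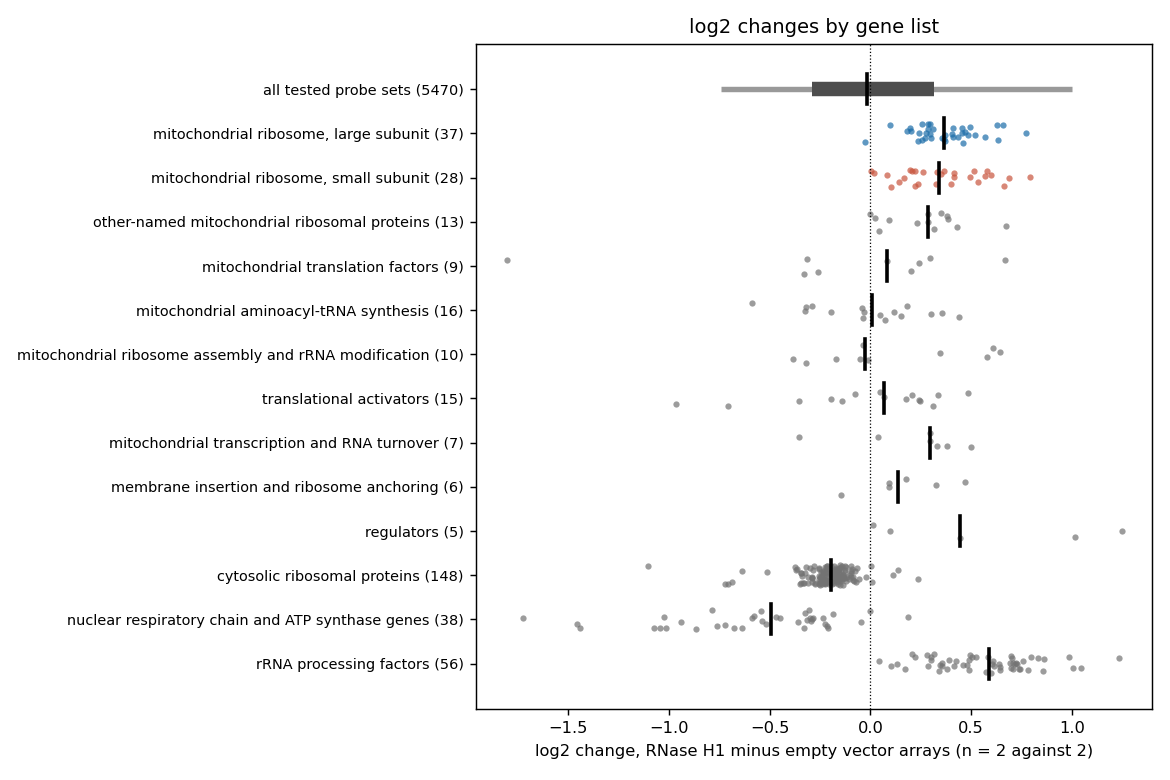
log2 changes (x axis, RNase H1 minus empty vector arrays) of single genes in each list (rows, number of tested probe sets in brackets), with a black bar at the median. For all tested probe sets the thick and thin lines span the middle 50% and 90%. The members lie between −0.02 and 0.79, with a median of 0.36 against −0.19 for the cytosolic ribosome and −0.49 for the respiratory chain.

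The respiratory chain and ATP synthase, and the cytosolic ribosome, had medians below 0. For 38 nuclear genes that serve ATP synthase or the respiratory chain the median log2 change was −0.49 and 1 lay above 0. For 148 probe sets with symbols of the form of cytosolic ribosomal proteins the median was −0.19 and 5 lay above 0. One of them, RPP1, is a subunit of RNase P and RNase MRP, and without it the median of the other 147 was also −0.19. The cytosolic value depended on scaling, at −0.07 after quantile and −0.03 after loess scaling. None of these passed over all genes in the limma fit, where before adjustment 22 of 38 and 89 of 148 were lower and 0 higher with p under 0.05, against 12.7% lower over all tested probe sets. After quantile scaling 2 respiratory chain genes passed as lower, and after median scaling 1. CYT1, cytochrome c1, had 1704 and 1830 in the controls, against 881 and 471 (log2 change −1.46 ± 0.32).

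Factors that process the cytosolic ribosome's RNA, named UTP, NOP, NOC or RRP, had a median log2 change of 0.59 with all 56 above 0. Of these 1, UTP10, passed over all genes, and before adjustment 11 of 56 were higher and 0 lower with p under 0.05, against 11.0% higher over all tested probe sets. No gene of this list passed after median scaling, without the intensity trend or with the replicate block. The factors' median log2 change was 0.67 without control array 1 and 0.48 without control array 2. Their medians by array were 0.15 in array 1 and 1.03 in array 2. The members' values of 0.30 and 0.47 were closer to each other. Array 2 had the higher value in 55 of the 56 processing factors and in 44 of the 65 members. No test of the difference between lists was made.

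**Figure D4:**
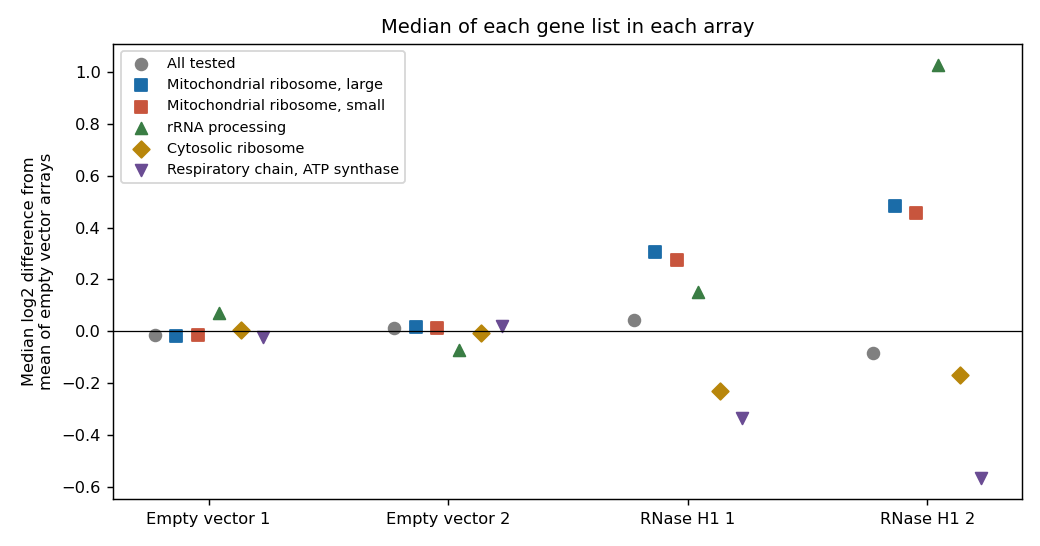
Median log2 difference from the mean of the 2 empty vector arrays (y axis) for 6 gene groups (symbols) in each of the 4 arrays (x axis). By role, the large and small subunit of the mitochondrial ribosome lie beside each other at 0.31 and 0.27 in the first and at 0.48 and 0.46 in the second array labelled RNase H1, above all tested probe sets in both arrays.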

How the data were processed

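Each deposited value is a MAS5 signal, a linear intensity per probe set. The submitters' processing notes name Affymetrix Expression Console and MAS5, and the sources used here do not give a scaling target. The table holds 10928 probe sets and 0 other columns per sample. Probe sets were named by the array annotation, of which 5498 name exactly 1 S. cerevisiae gene. Another 1746 that do not name several genes had no match in the R64 RefSeq table. These were taken as the S. pombe probe sets by exclusion, not by a species label. The R64 RefSeq table gave locus tags and neighbours; 12 current symbols differed, none among members. Probe sets with a mean log2 signal above the 75th percentile of S. pombe probe sets (a signal of 2.13) were tested, which kept 5470, including all 65 members.

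The log2 signals were fitted in R 4.3.3 by limma 3.58.1 (RNase H1 minus empty vector; eBayes with an intensity trend; two-sided), with Benjamini-Hochberg adjustment over all tested probe sets. Alternatives covered scaling, the filter, a pseudocount, the variance model, a replicate block and leaving out each array. The steps were tested on simulated data. Replicates are biological per the labels; same-numbered arrays were not treated as pairs, and the number of arrays, 2 per group, limits the precision. Subunit and family come from general knowledge. Members and lists were chosen with earlier results of these data known; the respiratory chain and rRNA processing lists were added last, as were repeats of lists without GEP3 and RPP1. Named members are the 8 highest and 8 lowest changes, the 3 brightest and 3 dimmest, and the 3 with the widest gap between replicates of either group; other lists name genes past the threshold, or else among the 2 highest and 2 lowest changes. Brightness served to choose members to name; changes were compared within a probe set. No sequences were used here, and mitochondrially encoded genes were not analysed here.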

Additional observations from a re-analysis of the deposited data

How the results depend on the processing

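The number of arrays, 2 per group, limits the precision. Leaving out single arrays gave medians from 0.30 to 0.47 for all members, 0.31 to 0.49 for the large and 0.27 to 0.46 for the small subunit, and a large minus small difference from −0.0209 to 0.0377 (0.0122 after quantile scaling). Members past the threshold numbered 0 to 43, and those higher before adjustment 1 to 44. Both upper counts came from the fit without array 1 labelled RNase H1, which takes the spread from the control arrays alone. The lowest count before adjustment came from the fit without control array 1. The share of all tested probe sets moved in the same way. By either criterion it was highest in the fits without an array labelled RNase H1. Before adjustment it was lowest in those without a control array. These ranges of counts are therefore not specific to the members. With an adjusted p under 0.10 in limma, 2 of 65 members passed as higher, against 3.51% of all tested probe sets. The replicate block left 7 of 65 higher before adjustment, against 8.08% of all, and 0 past the threshold. Across all tested probe sets, the array 1 minus array 2 differences within each group correlated between the groups at −0.30. A crossed replicate block called 4 of 65 members higher, against 8.83% of all. That block and a filter at a mean signal of 100 were chosen after seeing the data. Among named members, none of which had passed, 311 of the alternative values kept direction and call and 13 turned sign. The others newly passed, all in fits that leave 1 array labelled RNase H1 and take the spread from the controls alone. The cause of the turned signs was not tested. MRP2 was at −0.0390 after quantile and −0.0156 after median scaling, and MRPS35 at −0.0316, −0.0293 and, after loess, −0.00903. Without single arrays the ranges were −0.140 to 0.472 for RSM23, −0.0166 to 0.222 for RSM26, −0.127 to 0.295 for MRPS18, −0.107 to 0.139 for MRP2, −0.0500 to 0.0544 for MRPS35 and −0.269 to 0.219 for MRPL50.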

Other observations

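The regulators listed beside the ribosome had a median log2 change of 0.44 over 5 genes, all above 0. PUF3, whose protein binds transcripts of many mitochondrial ribosomal proteins, had signals of 139 and 164 in the controls, against 457 and 282 (log2 change 1.25 ± 0.30, limma adjusted p = 0.113). Both values labelled RNase H1 were above both controls. HAP4, the activating subunit of the HAP complex that drives respiratory genes, had 483 and 588 against 677 and 1706 (1.01 ± 0.46, limma adjusted p = 0.263), with most of the difference in array 2. HAP2 and HAP5 of the same complex were at 0.10 and 0.01.

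Of 7 genes of mitochondrial transcription and RNA turnover 6 lay above 0, with a median of 0.30. RPO41, the mitochondrial RNA polymerase, was at 0.50 and PET127, which acts in RNA processing, at −0.35. In 6 genes of membrane insertion and ribosome anchoring the median was 0.13, from 0.47 for MDM38 to −0.14 for OXA1, the insertase. In these 3 lists no gene passed over all genes in limma. Before adjustment 2 were higher and 0 lower with p under 0.05, against 11.0% higher and 12.7% lower of all tested probe sets.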
